A study of Homo sapiens with 6 samples.

Results

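The genes described here are 33 genes of sterol and lipid synthesis, listed by symbol as mevalonate and sterol enzymes, regulators of the SREBP and LXR transcription factors, and proteins of cholesterol uptake and efflux. All 33 were among the 15802 genes of the deposited table, and all 33 were among the 11613 genes with enough counts to be tested. RNA was sequenced in bulk from SC1, a single human B-cell lymphoma line, in 3 libraries treated with bryostatin at 1 nM (bryostatin 1, 2 and 3) and 3 libraries given its solvent DMSO (DMSO 1, 2 and 3). Bryostatin is a marine natural product that occupies the diacylglycerol site of protein kinase C. How long the cells were treated is not given in the sources used here. Nothing in the labels says whether replicates came from separate cultures, and p-values therefore measure the spread among these libraries only, which may be technical.

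Cells build cholesterol from acetyl-CoA through mevalonate and squalene. When cholesterol in the endoplasmic reticulum is low, the escort protein SCAP carries the precursors of the transcription factors SREBP-1 and SREBP-2 to the Golgi, where proteases release the active factors, and INSIG proteins hold SCAP back when sterols are plentiful. The released factors switch on the genes of sterol and fatty acid synthesis. The liver X receptors (LXR) respond to oxidised sterols and switch on the cholesterol exporters ABCA1 and ABCG1, the ubiquitin ligase MYLIP and the SREBP-1 gene SREBF1.

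Total expected counts were 18162161 to 18915394 per library, and a member had between 67 counts (NR1H3 in DMSO 3) and 12317 counts (FASN in DMSO 2) in a library. Markers of B cells were present in every library, with CD79A at 859 to 964 TPM (transcripts per 1000000 transcripts) in the bryostatin libraries and 543 to 564 TPM in the DMSO libraries, and the B-cell markers CD79A, MS4A1 and CD22 were higher with bryostatin at an adjusted p under 0.05. The B-cell markers CD79B and PAX5 did not pass (edgeR adjusted p = 0.125 and 0.796). The part of these B-cell genes in the results below was not tested. The T-cell genes CD3E, CD3G and CD8A were listed at 0.09 TPM or less in every library, and of the myeloid and the epithelial or stromal markers none was above 2.02 TPM. Bryostatin 1 stood apart from its group: a chi-square of its counts per gene was 40.8 against bryostatin 2 and 37.4 against bryostatin 3, while it was 2.91 between bryostatin 2 and 3 and 2.73 to 4.37 between DMSO libraries. Against the DMSO libraries it was 16.3 to 19.3 for bryostatin 2 and 3, and 46.5 to 51.3 for bryostatin 1. The gap of bryostatin 1 to its own group was thus larger than that of bryostatin 2 and 3 to DMSO. Calls that differ without that library are given beside the values from all 6 libraries. They are given for bryostatin 1 because it was seen to stand apart. Adjusted p-values without it rest on bryostatin 2 and 3, which lie close together. They therefore leave out the widest gap within the treated group, and small values are to be read with that limit. In bulk RNA, a change in the share of cells that express a gene cannot be told apart from a change in RNA per cell.

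The promoter sequences of a few members are shown because the family is classically recognised by its SREBP sites. RefSeq start windows (250 bases before to 50 bases after an annotated start, GRCh38.p14) were found for 28 of the 33 members, 38 windows in all, since some genes have several starts. ABCG1, ACAT2, FDFT1, SQLE and FASN had no window and were not searched. Both strands were searched for TCACNCCAC, the core of the sterol regulatory element, and for CCAAT, the box bound by NF-Y, a factor that works beside SREBP. In the windows below, capitals mark that core (with the base before it in SREBF2) or a CCAAT box on either strand. Only some of the windows that hold a marked site are shown. The windows of SREBF1, ABCA1 and CYP51A1, another window of IDI1 and another of HMGCS1 held neither sequence and are not printed.
SREBF2 (chr22:41832855-41833154, plus strand): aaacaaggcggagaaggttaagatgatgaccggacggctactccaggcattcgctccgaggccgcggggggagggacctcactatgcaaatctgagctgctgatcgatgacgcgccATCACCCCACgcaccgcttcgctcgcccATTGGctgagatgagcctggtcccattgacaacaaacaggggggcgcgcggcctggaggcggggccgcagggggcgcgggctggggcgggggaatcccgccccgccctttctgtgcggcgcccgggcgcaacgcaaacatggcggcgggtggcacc
IDI1 (chr10:1048837-1049136, minus strand): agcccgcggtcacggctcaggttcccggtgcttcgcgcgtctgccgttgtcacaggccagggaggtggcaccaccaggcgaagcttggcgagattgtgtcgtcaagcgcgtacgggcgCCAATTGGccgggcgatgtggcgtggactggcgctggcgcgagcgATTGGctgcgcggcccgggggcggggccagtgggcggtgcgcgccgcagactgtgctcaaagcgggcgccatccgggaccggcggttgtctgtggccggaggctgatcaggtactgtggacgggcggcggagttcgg
HMGCS1 (chr5:43313363-43313662, minus strand): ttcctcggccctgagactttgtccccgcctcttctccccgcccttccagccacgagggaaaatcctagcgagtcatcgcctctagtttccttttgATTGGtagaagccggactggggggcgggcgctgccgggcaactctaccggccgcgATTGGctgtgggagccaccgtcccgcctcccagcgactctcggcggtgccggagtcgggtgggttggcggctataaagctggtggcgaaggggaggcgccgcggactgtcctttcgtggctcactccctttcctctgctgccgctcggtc
MSMO1 (chr4:165327419-165327718, plus strand): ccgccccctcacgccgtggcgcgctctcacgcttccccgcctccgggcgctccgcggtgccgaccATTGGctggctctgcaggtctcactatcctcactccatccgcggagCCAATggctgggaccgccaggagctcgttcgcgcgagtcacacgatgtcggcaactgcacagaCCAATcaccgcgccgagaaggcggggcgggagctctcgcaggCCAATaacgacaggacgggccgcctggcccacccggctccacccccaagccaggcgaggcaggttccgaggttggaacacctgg
INSIG1 (chr7:155297628-155297927, plus strand): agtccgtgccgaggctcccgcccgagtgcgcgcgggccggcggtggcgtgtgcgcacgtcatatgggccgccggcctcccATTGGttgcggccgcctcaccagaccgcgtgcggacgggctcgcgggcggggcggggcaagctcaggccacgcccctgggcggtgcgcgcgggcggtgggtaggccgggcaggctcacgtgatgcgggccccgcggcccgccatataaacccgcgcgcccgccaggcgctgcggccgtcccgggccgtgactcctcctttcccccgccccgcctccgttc
The core TCACNCCAC was in 1 of the 38 member windows (2.63%), that of SREBF2, against 1.13% of all 35116 windows. There it has the classical form, with C at the open position and A before it, which 0.0456% of all windows hold. CCAAT was in 22 of the 38 member windows (57.9%), against 34.6% of all windows and 35.1% of the 14076 windows of tested genes. It was present 4 times in the MSMO1 window, 3 times in the IDI1 window shown, where a forward and a reverse copy overlap, and 2 times in that of HMGCS1. The windows of MVK and NSDHL, which are not printed, held 5 copies each, more than any window shown. Neither gene passed in the 6 libraries, and NSDHL had a log2 fold change of 0.02. Copy number was not compared with the fold changes. GGGCGG, the GC box bound by SP1, was in 89.5% of member windows, against 66.2% of the windows of tested genes, and the E-box CACGTG was in 15.8%, against 9.41%. The LXR repeat, 2 copies of AGGTCA spaced by 4 bases, was in no member window and in 0.0199% of all windows. These are matches of letters within short windows, and the absence of a match says nothing of whether a factor binds.

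Bryostatin was compared with DMSO to ask which of these transcripts differ after exposure to the protein kinase C ligand. Across the 6 libraries, 2 members rose, IDI1 of the mevalonate pathway and the cholesterol exporter ABCG1, and no member fell. By edgeR's quasi-likelihood test, with p-values adjusted by Benjamini-Hochberg, this was 2 of 33 members (6.06%), against 4.56% of all tested genes in either direction, 3.72% higher and 0.835% lower. The share of members called was thus close to that of all genes. At an unadjusted p under 0.05, 13 members were higher and 1 lower, where 18.7% of all tested genes were under that value (1338 higher and 838 lower). The median log2 fold change of the members was 0.26, against 0.00 (-0.00139) for all tested genes. Estimates were above 0 for 26 of the 33 members, against 5778 of all 11613 tested genes. Every bryostatin library lay above every DMSO library for 12 members (36.4%), against 15.3% of all tested genes, and below for 1 member (3.03%), against 12.5% of all tested genes. In both directions together the groups did not overlap for 13 members (39.4%), against 27.8% of all tested genes. The members were chosen with earlier results of these data known, so these shares are descriptions and not a test of the members. Here and below, CPM are counts per 1000000 of the scaled library size, group values are mean ± SD with n = 3 libraries, and log2 fold changes are bryostatin over DMSO, given as estimate ± SE.

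IDI1 (chromosome 10, 1039152 to 1056704, GRCh38) encodes the isomerase that interconverts the activated isoprene units made from mevalonate. It had 158, 165 and 177 CPM in bryostatin 1, 2 and 3, against 128, 128 and 134 CPM in DMSO 1, 2 and 3. All bryostatin libraries were above all DMSO libraries, and bryostatin 1 lay near the other treated libraries. The means were 167 ± 9.52 CPM with bryostatin and 130 ± 3.30 CPM with DMSO, a 1.28-fold rise (log2 0.36 ± 0.07, edgeR adjusted p = 0.0256). Part of the IDI1 locus overlaps WDR37 and IDI2-AS1, and use of strand in counting is not stated. The IDI1 call was lost in 9 of 14 alternative settings, over which the adjusted p ran between 2.23e-06 and 0.226. Leaving out bryostatin 2 or 3 gave 0.0734 or 0.112, and leaving out DMSO 1, 2 or 3 gave 0.166, 0.154 or 0.122. Scaling by library size alone gave 0.0605 and TPM values gave 0.226.

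ABCG1 (chromosome 21, 42199689 to 42297244) is a membrane transporter that passes cholesterol to lipoprotein particles. It had 63.3, 45.1 and 42.0 CPM in bryostatin 1, 2 and 3, against 27.8, 30.5 and 26.9 CPM in DMSO 1, 2 and 3. Every treated library was above every control library, and bryostatin 1 was the highest. The means were 50.1 ± 11.5 CPM with bryostatin and 28.4 ± 1.86 CPM with DMSO, a 1.76-fold rise (log2 0.82 ± 0.16, edgeR adjusted p = 0.0255; its 14 alternatives spanned 1.99e-06 to 0.151). Without bryostatin 1 the rise was 0.62 on the log2 scale, with adjusted p = 1.99e-06, in a comparison that called 27% of all tested genes. The adjusted p was 0.135, 0.106 and 0.151 without DMSO 1, 2 and 3, and ABCG1 passed in the other 11 settings.

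**Figure D1:**
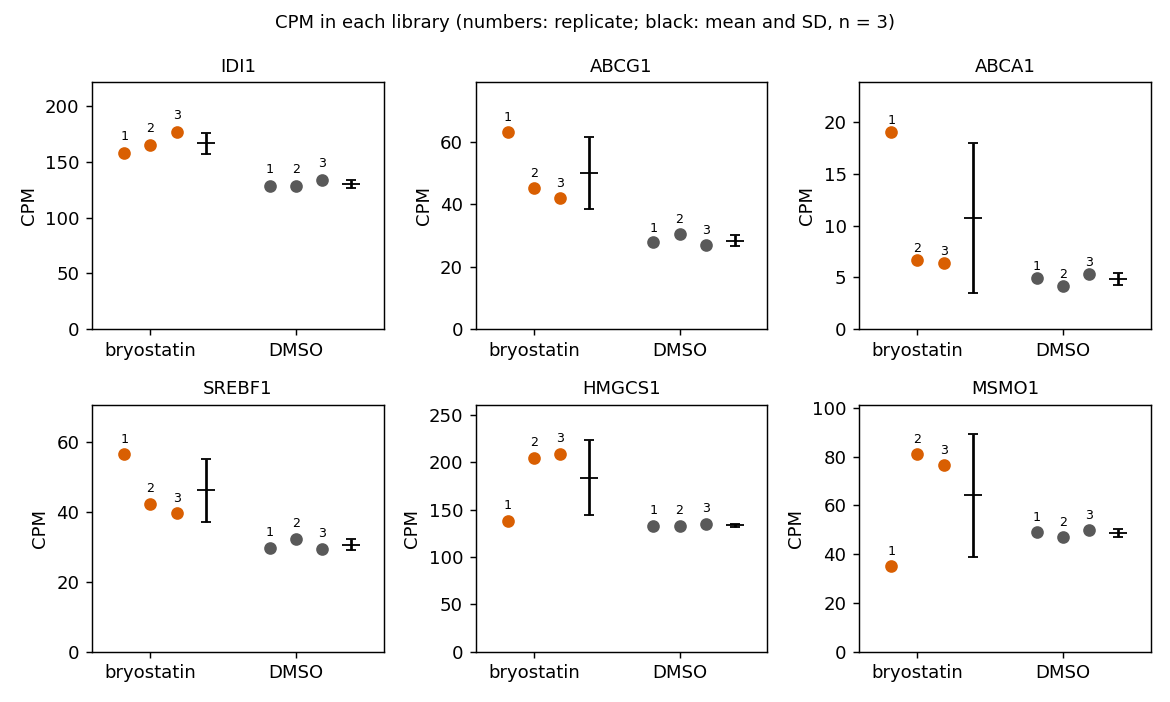
CPM (y axis, from 0) of 6 members in each library, bryostatin in orange on the left and DMSO in grey on the right, with the replicate number above each point and the mean ± SD (n = 3) in black. Bryostatin 1 is the highest library for ABCG1, ABCA1 and SREBF1, and for MSMO1 it is the lowest of the 6, at 35.2 CPM.

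Among the other enzymes of the mevalonate pathway no gene passed in the 6 libraries. HMGCS1, which condenses acetyl-CoA with acetoacetyl-CoA to HMG-CoA, had 138, 205 and 209 CPM in bryostatin 1, 2 and 3, against 133, 133 and 135 CPM in DMSO 1, 2 and 3. Bryostatin 2 and 3 were well above the DMSO libraries, while bryostatin 1 was only just above them. The log2 fold change was 0.46 ± 0.15 (edgeR adjusted p = 0.130), and without bryostatin 1 it was 0.63 ± 0.04 (adjusted p = 5.88e-10). Over the 14 alternative settings the adjusted p of HMGCS1 reached 0.438. MVK, the kinase that phosphorylates mevalonate, had 14.7, 18.1 and 14.9 CPM in the bryostatin libraries, against 12.5, 14.5 and 12.7 CPM in the DMSO libraries (adjusted p = 0.292). Among the other 4 enzymes, log2 fold changes were -0.01 for the phosphomevalonate kinase PMVK, 0.15 for the decarboxylase MVD, and 0.16 for both FDPS, which makes farnesyl diphosphate, and ACAT2, the cytosolic acetoacetyl-CoA thiolase at the head of the pathway. For FDPS the higher mean came from bryostatin 1, with 186 CPM in it, 139 and 142 CPM in bryostatin 2 and 3, and 131 to 144 CPM in DMSO. Without bryostatin 1, in a comparison that called 27% of all tested genes, MVK, IDI1 and HMGCS1 passed and were higher, and FDPS had a log2 fold change of 0.01. MVK and HMGCS1 passed in no other alternative setting.

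The sterol branch runs from squalene to cholesterol, and none of its 11 enzymes passed in the 6 libraries, although 10 of 11 estimates were above 0 (median 0.27). FDFT1 (squalene synthase) came nearest, with 312, 259 and 270 CPM in bryostatin 1, 2 and 3, against 226, 221 and 214 CPM in DMSO 1, 2 and 3. Its groups did not overlap, and the log2 fold change was 0.35 ± 0.08 (edgeR adjusted p = 0.0520, and 0.0464 when scaled by library size alone). FDFT1 passed in 5 of the 14 alternative settings, over which its adjusted p reached 0.244. MSMO1, the methylsterol oxidase, had 35.2, 81.1 and 76.5 CPM in bryostatin 1, 2 and 3, against 49.2, 47.1 and 50.0 CPM in DMSO 1, 2 and 3. Here bryostatin 1 was the lowest of the 6 libraries and bryostatin 2 and 3 the highest. The sterol desaturase SC5D had the same order, with 41.8, 81.2 and 68.7 CPM in bryostatin 1, 2 and 3, against 53.6, 50.3 and 55.6 CPM in DMSO 1, 2 and 3. For SQLE, the squalene epoxidase, bryostatin 1 had 157 CPM, below the 170 to 180 CPM of DMSO, while bryostatin 2 and 3 had 236 and 226 CPM. CYP51A1, the lanosterol demethylase, had 162, 238 and 226 CPM in bryostatin 1, 2 and 3, against 158 to 165 CPM in DMSO, so that bryostatin 1 was inside the DMSO range. The other order was seen for TM7SF2, a sterol reductase, with 22.7, 13.3 and 11.7 CPM in bryostatin 1, 2 and 3, against 9.96, 11.5 and 10.4 CPM in DMSO 1, 2 and 3. All treated libraries were above the DMSO libraries, but bryostatin 3 only just. Log2 fold changes were -0.01 for the cyclase LSS, 0.02 for NSDHL and 0.11 for the isomerase EBP, 0.15 for DHCR7, the last reductase before cholesterol, and 0.37 for HSD17B7, a 3-keto-reductase. Adjusted p values for these 5 were 0.971, 0.915, 0.580, 0.430 and 0.156. Without bryostatin 1, where 27% of all tested genes were called, 6 of the 11 passed and were higher, namely FDFT1, SQLE, CYP51A1, MSMO1, SC5D and DHCR7, with log2 fold changes of 0.26, 0.40, 0.52, 0.69, 0.49 and 0.19. Of these, all but FDFT1 passed in no other alternative setting.

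**Figure D2:**
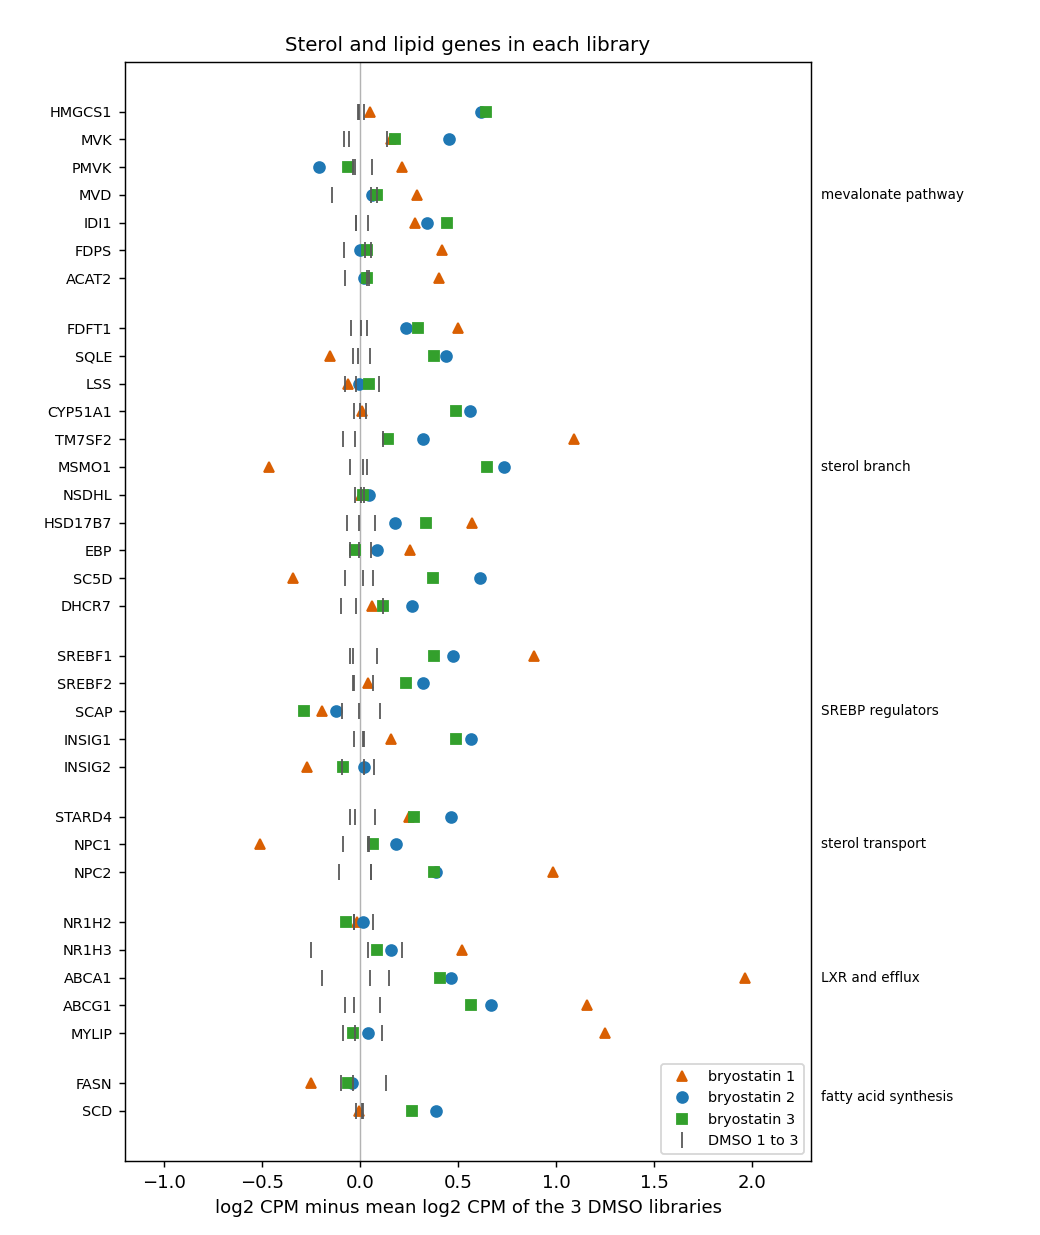
Log2 CPM of each member in each library minus its mean over the 3 DMSO libraries (x axis), with members grouped by role down the page; coloured symbols are bryostatin 1 (triangles), 2 (circles) and 3 (squares), and grey ticks are the DMSO libraries. Bryostatin 2 and 3 lie close together for most members, while bryostatin 1 lies to their left for MSMO1, SC5D, SQLE, CYP51A1 and HMGCS1 and to their right for ABCA1, MYLIP, ABCG1, SREBF1 and TM7SF2.

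The regulators of SREBP gave a mixed picture, with 3 estimates above 0 and 2 below, and none passed in the 6 libraries. The comparison without bryostatin 1, quoted in brackets below, called 27% of all tested genes. SREBF1 (chromosome 17, 17811334 to 17836986), the gene of SREBP-1, had 56.5, 42.3 and 39.7 CPM in bryostatin 1, 2 and 3, against 29.8, 32.3 and 29.5 CPM in DMSO 1, 2 and 3. The groups did not overlap, and the log2 fold change was 0.60 ± 0.14 (edgeR adjusted p = 0.0522, with 1.31e-04 without bryostatin 1 and 0.0427 without the filter on low counts). SREBF1 passed in 4 of the 14 alternative settings, over which its adjusted p reached 0.238. SREBF2, the gene of SREBP-2, had 316, 384 and 361 CPM in bryostatin 1, 2 and 3, against 299, 322 and 300.5 CPM in DMSO 1, 2 and 3, with bryostatin 1 inside the DMSO range (log2 0.20 ± 0.08, adjusted p = 0.237, and 0.28 with 7.66e-05 without bryostatin 1). INSIG1, itself a target of SREBP, had 133, 176 and 167 CPM in bryostatin 1, 2 and 3, against 117, 120 and 121 CPM in DMSO 1, 2 and 3 (log2 0.41 ± 0.11, adjusted p = 0.0718, and 0.53 with 2.50e-08 without bryostatin 1). Its relative INSIG2 averaged 12.8 ± 1.30 CPM in the bryostatin libraries and 13.8 ± 0.796 CPM in the DMSO libraries, and the groups overlapped (adjusted p = 0.658). SCAP had 83.5, 87.6 and 78.4 CPM in bryostatin 1, 2 and 3, against 95.1, 102 and 89.6 CPM in DMSO 1, 2 and 3. It was the one member whose treated libraries were all below the DMSO libraries (log2 -0.20 ± 0.08, adjusted p = 0.229, and -0.21 with 0.0210 without bryostatin 1). Over the 14 alternative settings SREBF2 and SCAP each passed in 1 and INSIG1 in 2. The highest adjusted p was 0.702 for SREBF2, 0.567 for SCAP and 0.335 for INSIG1.

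Of the genes of sterol transport, none passed in the 6 libraries. NPC2, the soluble cholesterol-binding protein of lysosomes, had 22.2, 14.7 and 14.6 CPM in bryostatin 1, 2 and 3, against 10.4, 11.6 and 11.6 CPM in DMSO 1, 2 and 3 (log2 0.61 ± 0.18, edgeR adjusted p = 0.107). The groups did not overlap, and bryostatin 1 was the highest library. Its membrane partner NPC1 had 21.3, 34.4 and 31.8 CPM in the bryostatin libraries, against 31.2, 31.3 and 28.5 CPM in the DMSO libraries, with bryostatin 1 the lowest of all (log2 -0.06 ± 0.17, adjusted p = 0.895). STARD4, a cytosolic sterol carrier, had 12.7, 14.8 and 12.9 CPM with bryostatin, against 10.5, 10.3 and 11.2 CPM with DMSO (log2 0.33 ± 0.11, adjusted p = 0.151). Without bryostatin 1, NPC2 and STARD4 passed and were higher, by 0.38 and 0.37 on the log2 scale. That comparison called 27% of all tested genes. Over the 14 alternative settings NPC2 passed in 2 and STARD4 in 1.

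Among the LXR genes and their targets, the exporter ABCG1 passed, as given above, and bryostatin 1 set the size of several other differences. ABCA1, which loads cholesterol onto apolipoproteins, had 19.1, 6.68 and 6.43 CPM in bryostatin 1, 2 and 3, against 4.98, 4.20 and 5.33 CPM in DMSO 1, 2 and 3. All treated libraries were above the DMSO libraries, but bryostatin 1 was 2.88-fold above the mean of bryostatin 2 and 3. The log2 fold change of ABCA1 was 1.14 ± 0.42 (edgeR adjusted p = 0.185) in the 6 libraries and 0.44 ± 0.16 (adjusted p = 0.0533) without bryostatin 1. ABCA1 passed in 1 of the 14 alternative settings, DESeq2 (adjusted p = 0.0395), and its adjusted p reached 0.456. MYLIP, a ubiquitin ligase that marks lipoprotein receptors for degradation, had 21.4, 9.16 and 8.68 CPM in bryostatin 1, 2 and 3, against 8.77, 9.63 and 8.40 CPM in DMSO 1, 2 and 3. Bryostatin 2 and 3 were inside the DMSO range, and the log2 fold change was 0.55 ± 0.33 (adjusted p = 0.425) with bryostatin 1 and 0.00 (-0.00288) without it. Neither receptor gene passed. NR1H2 (LXR-beta) had 36.2, 37.0 and 34.7 CPM with bryostatin, against 35.7, 38.2 and 35.7 CPM with DMSO (log2 -0.02 ± 0.08, adjusted p = 0.908). NR1H3 (LXR-alpha) had 6.11, 4.74 and 4.50 CPM with bryostatin, against 4.93, 4.36 and 3.54 CPM with DMSO (log2 0.26 ± 0.19, adjusted p = 0.526).

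The fatty acid enzymes among the members did not pass in the 6 libraries. SCD, the stearoyl-CoA desaturase, had 462, 606 and 557 CPM in bryostatin 1, 2 and 3, against 457, 467 and 468 CPM in DMSO 1, 2 and 3, with bryostatin 1 inside the DMSO range (log2 0.22 ± 0.10, edgeR adjusted p = 0.273, and 0.32 with 5.67e-06 without bryostatin 1). The comparison without bryostatin 1 called 27% of all tested genes. SCD passed in 1 of the 14 alternative settings, over which its adjusted p reached 0.687. FASN, the fatty acid synthase, had 509, 587 and 580 CPM in the bryostatin libraries, against 591, 662 and 566 CPM in the DMSO libraries (log2 -0.12 ± 0.09, adjusted p = 0.514). Per transcript length, in TPM, the mean level of the members ranged widely. FDPS averaged 225 ± 14.9 TPM with bryostatin and 214 ± 6.84 TPM with DMSO, FDFT1 averaged 226 ± 2.60 TPM and 188 ± 4.56 TPM in the same order, and ABCA1 averaged 1.46 ± 0.829 TPM with bryostatin and 0.733 ± 0.103 TPM with DMSO (SD, n = 3 each).

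Leaving out bryostatin 1 changed the count of members most. The 2 against 3 comparison called 17 of 33 members (51.5%), 16 higher and 1 lower, where 27% of 11790 tested genes were called (1632 higher and 1551 lower). The members called numbered 3 of 7 in the mevalonate pathway, 6 of 11 in the sterol branch, 4 of 5 among the SREBP regulators (3 higher and SCAP lower), 2 of 3 in sterol transport, 1 of 5 among LXR genes and 1 of 2 in fatty acid synthesis. The median log2 fold change of the members was 0.26 with and without that library. Bryostatin 2 and 3 were both above all DMSO libraries for 19 of 33 members (57.6%), against 26.5% of all tested genes, and both below for 2 members (6.06%, PMVK and SCAP), against 25.5% of all tested genes. Bryostatin 1 by itself was also above all DMSO libraries for 19 members, and below all of them for 7 (SQLE, MSMO1, SC5D, SCAP, INSIG2, NPC1 and FASN), against 41.8% and 40.2% of all tested genes.

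**Figure D3:**
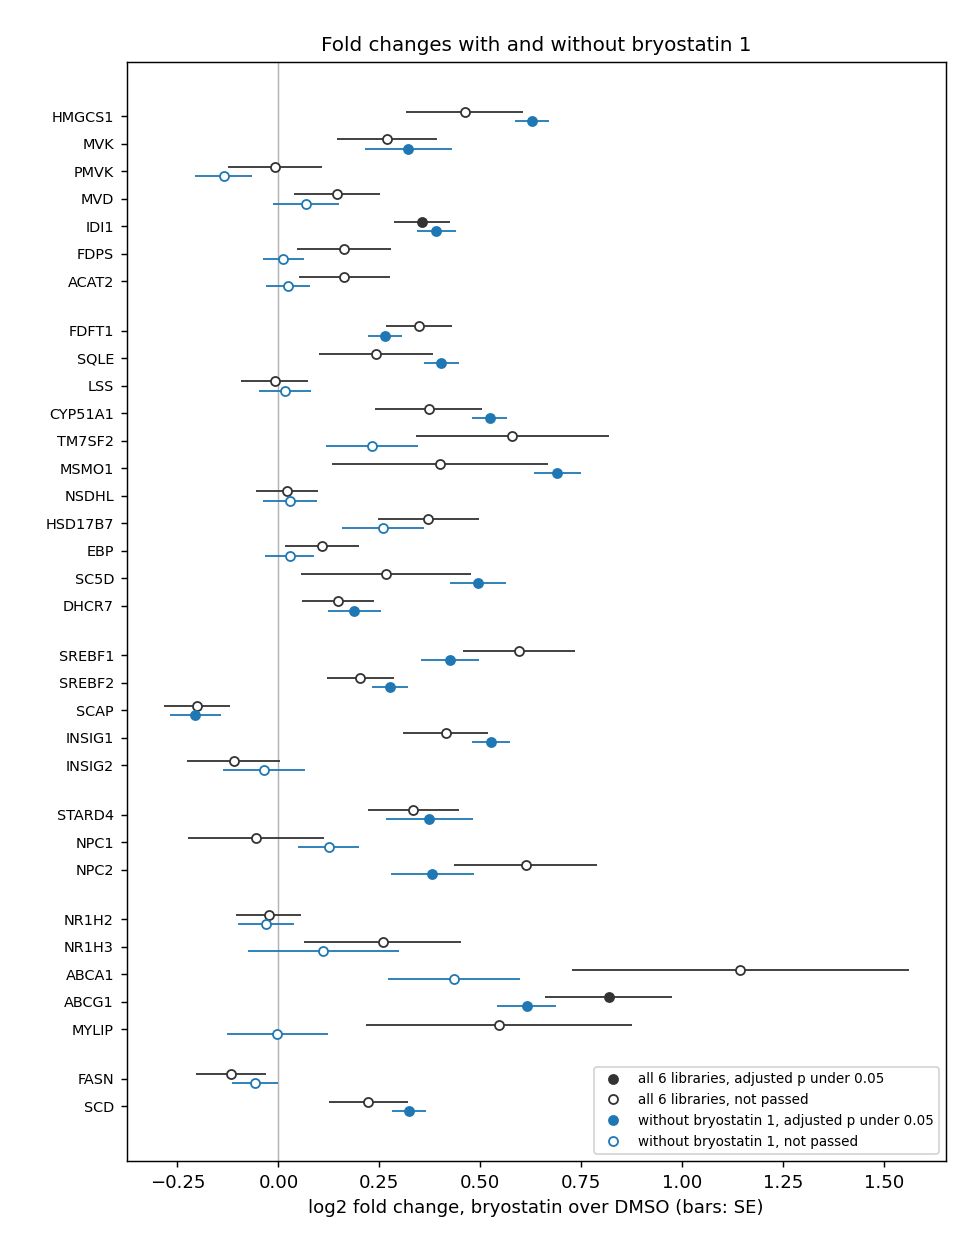
Log2 fold change of each member, bryostatin over DMSO (x axis, bars are SE), from all 6 libraries (black) and without bryostatin 1 (blue); filled points have an edgeR adjusted p under 0.05. IDI1 and ABCG1 are filled in both, and 15 more members are filled without bryostatin 1, SCAP alone of them to the left of 0.

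The place of bryostatin 1 varied among the members. Of the LXR genes, the 4 other than NR1H2 were higher in bryostatin 1 than in both other treated libraries, with ratios to the mean of bryostatin 2 and 3 of 2.88 for ABCA1, 2.38 for MYLIP, 1.45 for ABCG1 and 1.32 for NR1H3. The ratio for SREBF1 was 1.38. Among enzymes of sterol synthesis the ratio was 0.448 for MSMO1, 0.561 for SC5D, 0.669 for HMGCS1 and 0.679 for SQLE, and it was 0.773 for INSIG1. Other enzymes lay the other way. Bryostatin 1 was above both other treated libraries for 4 of 7 mevalonate enzymes, with ratios of 1.16 for MVD, 1.27 for PMVK, 1.30 for ACAT2 and 1.32 for FDPS. It was also above both for 4 of 11 sterol branch enzymes, with ratios of 1.17 for EBP, 1.18 for FDFT1, 1.24 for HSD17B7 and 1.82 for TM7SF2. Over all tested genes this order was found for 44.5%. This is a comparison of 1 library with 2 others of its group, chosen after the values were seen, and it has no test.

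Transcript length, as implied by the deposited counts and FPKM, moved with that gap. Over the 33 members, Spearman's rho between the log2 gap of bryostatin 1 to bryostatin 2 and 3 and transcript length was -0.457, and over 11360 tested genes with a length and a GC value it was -0.521. With the GC content of the longest coding transcript it was 0.337 over the members and 0.126 over those genes. The points share their libraries, so these are descriptions of one gap and carry no p. Among the members, the short transcripts NPC2 (587 bases), PMVK (737 bases) and FDPS (996 bases) were higher in bryostatin 1, and the long transcripts SC5D (6604 bases), HMGCS1 (4543 bases) and NPC1 (4520 bases) were lower. Against this order, ABCA1 is the longest member (10150 bases) and had the highest ratio, SREBF1 (4263 bases) was also higher, and MSMO1 (1958 bases) had the lowest ratio. The part of length in the members' differences was not tested.

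**Figure D4:**
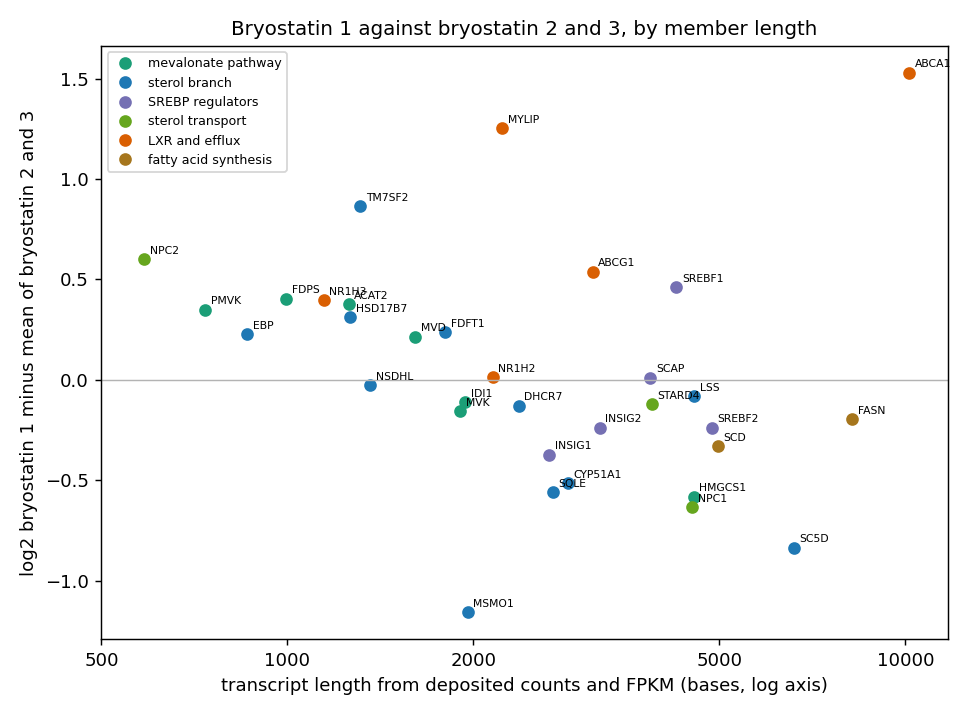
Log2 ratio of bryostatin 1 to the mean of bryostatin 2 and 3 for each member (y axis) against transcript length implied by deposited counts and FPKM (x axis, bases, log scale), coloured by role. The 7 members of 1264 bases or less lie above 0, most longer ones lie below it, and ABCA1, MYLIP, ABCG1 and SREBF1 lie above 0 at greater length.

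A wider list of 67 genes of sterol and fatty acid metabolism that are not members had 60 tested, of which 5 rose, none fell and 55 did not pass (8.33% called, against 4.56% of all tested genes), with a median log2 fold change of 0.03. The 5 were ELOVL6, HSD17B12, FADS2 and ACSL5 of fatty acid supply and elongation (4 of 18 tested) and LIPA of cholesterol ester metabolism (1 of 5 tested), where 3.72% of all tested genes were called higher. Of the 18 genes of fatty acid supply and elongation, 11 had estimates above 0 and 7 below. FADS2, the desaturase at the entry to polyunsaturated fatty acids, had 48.7, 53.3 and 51.6 CPM in bryostatin 1, 2 and 3, against 34.8, 32.5 and 32.8 CPM in DMSO 1, 2 and 3. The groups were well apart, and all treated libraries were alike (1.53-fold, edgeR adjusted p = 0.00528). Over 14 alternatives its adjusted p lay between 9.58e-08 and 0.0599, and the call was lost on TPM values (0.0599) and when DMSO 2 (0.0512) or DMSO 3 (0.0540) was left out. LIPA, the lysosomal acid lipase that frees cholesterol from its esters, had 36.3, 34.3 and 26.9 CPM in the bryostatin libraries, against 20.7, 22.4 and 20.2 CPM in the DMSO libraries (1.54-fold, adjusted p = 0.0309). Its alternatives lay between 3.36e-04 and 0.174, and the call was lost on TPM values (0.0596), when bryostatin 2 was left out (0.101) and when any DMSO library was left out (0.121 to 0.174). The elongase ELOVL6, the ketoacyl-CoA reductase HSD17B12 and the acyl-CoA synthetase ACSL5 rose 1.39-fold, 1.30-fold and 1.33-fold (adjusted p = 0.0202, 0.0311 and 0.0364). Each of these lost its call when any DMSO library, bryostatin 2 or bryostatin 3 was left out, with a highest adjusted p of 0.187, 0.197 and 0.218 over the alternatives. TPM values also ended the calls of ELOVL6 (0.187), HSD17B12 (0.0788) and ACSL5 (0.212), and scaling by library size alone ended that of ACSL5 (0.0627).

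No gene of the other wider lists passed. PLIN3, a lipid droplet coat protein, averaged 80.2 ± 14.6 CPM with bryostatin and 56.0 ± 2.70 CPM with DMSO (edgeR adjusted p = 0.0627), and STARD3, a late endosomal sterol carrier, averaged 39.7 ± 2.98 CPM with bryostatin and 30.6 ± 1.45 CPM with DMSO (adjusted p = 0.0622). The groups of both genes did not overlap. Log2 fold changes were 0.41 for the sterol transporter GRAMD1A and -0.23 for SCARB1, the receptor of high-density lipoprotein, and -0.80 for APOE, which was between 0.457 and 1.48 CPM in every library. They were -0.27 for UBE2G2, a ubiquitin-conjugating enzyme of protein degradation at the endoplasmic reticulum, and -0.17 and -0.58 for NUS1 and FNTB, subunits of a dolichol-making enzyme and of farnesyltransferase. Adjusted p values of these 6 genes were 0.275, 0.232, 0.286, 0.182, 0.175 and 0.443. Without bryostatin 1, 22 of the 60 tested genes of the wider list passed, 15 higher and 7 lower, in a comparison that called 27% of all tested genes. Among them, PLIN3 and STARD3 were higher by 0.36 and 0.35 on the log2 scale (adjusted p = 1.10e-04 and 0.00169). SCARB1, UBE2G2 and NUS1 were lower, with log2 fold changes of -0.29, -0.17 and -0.17 (adjusted p = 0.00601, 0.0105 and 0.00613), while GRAMD1A, APOE and FNTB did not pass (0.107, 0.275 and 0.645).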

How the data were processed

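Poly(A)-selected RNA of 6 SC1 libraries was sequenced as paired ends, per the labels' protocols. The authors deposited expected counts (6.31 to 7.22% of values in a library not whole), FPKM and TPM for each gene and library; the submitters' processing notes name GRCh38 as the build and, with no role or order, RSEM 1.2.28, HISAT2 2.2.1 and DESeq2 1.40.2. Neither annotation nor strand use is given in the sources used here. The 20 members that overlap another RefSeq gene (8 a protein-coding one) and those with near-identical copies are uncertain.

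Rounded expected counts entered edgeR 4.0.16 (R 4.3.3) after filterByExpr, with TMM factors (bryostatin 1 had 0.953, other libraries 1.00 to 1.02). The quasi-likelihood test was robust and 2-sided, and Benjamini-Hochberg adjustment covered all 11613 genes, with a threshold of 0.05. SE is the size of the log2 fold change over the root of F. The test was checked on simulated counts, where it recovered 50.6% of 1.5-fold changes, 81.8% of 2-fold changes and 98.4% of 4-fold changes. A gene that did not pass may therefore still differ. No set test was run. Coordinates (1-based) and promoters are from RefSeq GRCh38.p14, and lengths were computed from deposited counts and FPKM. Such lengths are those used for the FPKM and may differ from annotated transcript lengths. The members and gene lists were chosen with earlier results of these data known. Every member was named, and of each wider list the 2 genes with the smallest p and any gene that passed, except for results not reported here. Alternatives were RLE factors or library size alone, DESeq2 1.42.0, limma 3.58.1 on log2(TPM + 1) and log2(TPM + 0.1), no filter, a mean count of at least 10, a replicate block, and each library left out.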

Additional observations from a re-analysis of the deposited data

How the results depend on the processing

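Members called numbered 2 higher and 0 lower in the 6 libraries, with 7 higher by DESeq2 and 1 with the replicate block, and 0 to 16 higher and 0 to 1 lower with 1 library left out. They numbered 2 or 3 higher and 0 lower in the other 6 settings. Their median log2 fold change of 0.26 was 0.12 on both TPM scales (where the median of all genes was -0.08 with a pseudocount of 1 and -0.10 with 0.1), and 0.20 to 0.26 with 1 library left out. For the wider list, 5 higher became 1 on both TPM scales and 3 with the replicate block, DESeq2 called 7 higher and 1 lower, and leaving out 1 library gave 0 to 15 higher and 0 to 7 lower. Over all genes, 432 higher and 97 lower became 653 and 274 by DESeq2, 266 and 195 on log2(TPM + 1), 267 and 199 on log2(TPM + 0.1) and 284 and 54 with the replicate block; leaving out 1 library gave 128 to 1632 higher and 10 to 1551 lower. The cause was not tested.

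Signs turned for 6 members, none of which passed in the 6 libraries. NSDHL had log2 fold changes of -0.017 with library size alone, -0.048 on log2(TPM + 1) and -0.049 on log2(TPM + 0.1). With 1 library left out, values ran between -0.14 and 0.083 for PMVK, -0.047 and 0.041 for LSS, -0.19 and 0.12 for NPC1, -0.045 and 0.0091 for NR1H2, and -0.0029 and 0.76 for MYLIP. The labels name no pairs, and the replicate numbers were not taken as pairs. Deviations of same-numbered libraries from their group means had correlations of -0.212, -0.165 and 0.0311 for numbers 1, 2 and 3. With 3 libraries per group and bryostatin 1 far from the others, these correlations cannot show that pairing is absent. With the replicate block the edgeR adjusted p was 0.0676 for IDI1, 0.0293 for ABCG1, 0.0986 for HSD17B12 and 0.0995 for ACSL5.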
